A study of Zea mays with 4 samples.

Results

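In maize B73, 112 annotated loci of leaf 6 had at least 10 FPKM in both high nitrogen libraries and at most 20% of the lower of those values in the higher of the 2 low nitrogen libraries. FPKM count sequenced fragments after scaling for transcript length and for the size of the library, so a value is relative to the rest of its library. The loci were selected on these same 4 libraries, and their levels below are a description that was not tested. They are 1.21% of the 9260 annotated loci with at least 10 FPKM in both high nitrogen libraries, and 112 of the 43110 loci in the table. YS1 and GRMZM2G429955 meet the same limits and were set apart by name, and 16 loci without an annotated gene meet them too.

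B73, the line whose genome is the maize reference, was grown in aerated nutrient solution from seedlings whose endosperm had been removed. All plants first received 4 mM nitrate as the calcium salt. High nitrogen plants stayed on it, and low nitrogen plants were moved to 0.04 mM nitrate once the third leaf had expanded, with calcium chloride added to balance calcium. The RNA came from mature tissue of an expanding leaf, which the study's figures name as the sixth. It was sequenced in 2 biological replicates per treatment, 4 libraries in all. How many plants went into each is not given in the sources used here.

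Plants take up nitrate, reduce it to nitrite and then to ammonium, and bind the ammonium into glutamine and glutamate, from which nitrogen passes to other amino acids. In leaves much of the nitrogen sits in photosynthetic proteins such as the antenna proteins that bind chlorophyll. Alanine and arginine carry nitrogen between tissues and compounds, and arginine is also a starting point of polyamines. Nitrogen supply also acts on plants through hormones, among them cytokinins, which are made in response to nitrate, and strigolactones, which control branching.

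The tissue had the transcripts of a photosynthetic leaf. The PEPC locus GRMZM2G083841 measured 19557 and 13126 FPKM under high nitrogen against 4803 and 2630 under low nitrogen, and the main PPDK locus GRMZM2G306345 had 18089 and 12620, and 8805 and 7886. The 5 loci with zein names, which mark seed, were at or below 2.02 FPKM in every library. Other symbols taken beforehand as seed markers were not all low. The o2 locus reached 0.0980 FPKM at most and sh2 0.360. The bt2 locus had 5.18 and 7.86 FPKM under high nitrogen against 6.95 and 7.92 under low nitrogen. SH-1 measured 21.3 and 18.2 FPKM under high nitrogen against 77.2 and 32.6 under low nitrogen. Summed over the table, FPKM came to 1798408 and 1764398 under high nitrogen against 1141129 and 1043303 under low nitrogen. In bulk tissue, fewer cells of a type and less RNA per cell cannot be told apart.

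The 112 loci covered a wide range of high nitrogen levels. Their mean high nitrogen FPKM ran from 10.8 to 19430 with a median of 65.1, beside a median of 29.0 over the 9260 loci. In low nitrogen the means ran from 0 to 2172 with a median of 2.29, beside 26.4. The level left in low nitrogen, which is the low nitrogen mean as a percent of the high nitrogen mean, had a median of 6.49% and a highest value of 17.2%. Over the 9260 loci its median was 87.9%. Of the 112 loci, 26 kept under 1%, 49 under 5%, 81 under 10% and 107 under 15%. Strongly and weakly expressed loci were both present, as 46 had a high nitrogen mean of at least 100 FPKM and 17 had a mean under 20.

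**Figure D1:**
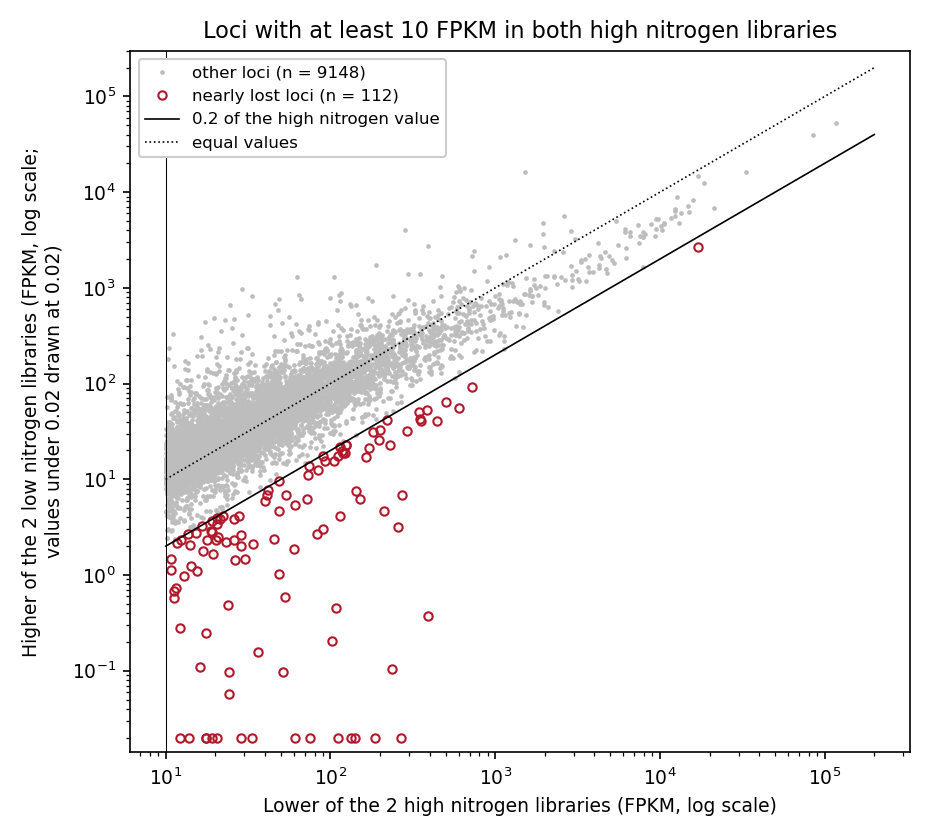
Each point is a locus, with the lower of its 2 high nitrogen values on the x axis and the higher of its 2 low nitrogen values on the y axis, both in FPKM on log scales. The 112 nearly lost loci lie under the solid line at 0.2 of the high nitrogen value by construction, and the row at the bottom holds those listed at 0 in both low nitrogen libraries.

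The loci held 2.03% and 1.74% of the FPKM sum under high nitrogen but 0.311% and 0.245% under low nitrogen. The CAB48 locus alone made up 59.8% and 55.5% of the loci's own sum under high nitrogen against 74.4% and 66.6% under low nitrogen. Without it the other loci held 0.814% and 0.777% under high nitrogen against 0.0797% and 0.0817%.

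In limma's moderated test on log2(FPKM + 1) with Benjamini-Hochberg adjustment, 112 of the 22889 tested loci (0.489%) were called lower in low nitrogen and 11 (0.0481%) were called higher. That the first count equals the number of nearly lost loci is a coincidence. A call needs an adjusted p under 0.05 and a log2 fold change past 1 in size. Of the 112 nearly lost loci 83 were among those called lower and 29 were not, a count that follows from how they were chosen and from which nothing is read. Their median log2 fold change was -3.62, beside -0.01 over all tested loci, on a scale that compresses changes at low FPKM. The call counts depended on each library. Without low nitrogen replicate 2 no locus was called although 2787 had an unadjusted p under 0.05 and a log2 fold change past 1, and without high nitrogen replicate 1, high nitrogen replicate 2 or low nitrogen replicate 1 the calls numbered 15, 54 and 12. With 2 libraries against 2, exact permutation of the labels of a gene cannot give a two-sided p under 0.333.

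A role could be read for 22 of the loci. The name in the table gave it for 3, a MapMan class (a scheme that sorts plant genes by function) from the study's class table for 12, and a RefSeq synonym for 7. The class table lists genes that the authors had called as changed, so a missing class says nothing about a gene's function. The other 90 loci have no role given in the sources used here, and their levels were of the same order, with high nitrogen means from 10.8 to 650.0 FPKM and a median level left of 6.12%.

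Nitrogen and amino acid metabolism had 4 of the loci with a role. GLN2 on chromosome 1 (B73 RefGen_v3, 267953427 to 267963551) measured 53.2 and 67.7 FPKM under high nitrogen against 0.583 and 0.196 under low nitrogen. Glutamine synthetase binds ammonium to glutamate, and RefSeq lists gs1-2, a name for a cytosolic form, among the synonyms of this gene. Its level left was 0.644%, the lowest of the loci with a role. The name GLN2 also stands at a locus on chromosome 10 whose RefSeq synonyms include gs2, the plastid form, and which measured 424 and 429 FPKM under high nitrogen against 203 and 126 under low nitrogen. The chromosome 10 locus kept 38.7% and is not among the nearly lost loci.

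The alanine aminotransferase class was carried by 2 of the nearly lost loci, and genes of this enzyme that the authors had not called cannot carry it. This enzyme moves the amino group between alanine and glutamate. GRMZM5G828630 on chromosome 1 measured 1488 and 719 FPKM under high nitrogen against 73.8 and 91.8 under low nitrogen, and its class rests on a match that the table calls weak. GRMZM2G088064 on chromosome 5 was far less abundant, with 44.5 and 20.8 FPKM under high nitrogen against 1.76 and 2.49 under low nitrogen. In both, high nitrogen replicate 1 was over 2 times replicate 2, while the low nitrogen replicates lay closer together. GRMZM2G374302 on chromosome 4, classed as an arginine decarboxylase, which opens a route to polyamines, measured 466 and 352 FPKM under high nitrogen against 40.9 and 12.5 under low nitrogen.

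Light harvesting had 1 locus in the set, and GRMZM2G429955, which was set apart by name, shares its bounds and measured 6607 and 5853 FPKM under high nitrogen against 653 and 407 under low nitrogen. CAB48 encodes a chlorophyll a/b-binding protein of the antenna of photosystem II. Its locus also carries the names GRMZM2G104549, AC208915.3_FG010 and GRMZM2G120661, and runs from 223440715 to 223617891 on chromosome 3. RefSeq has separate entries for GRMZM2G104549 and CAB48, so the values of the locus cannot be credited to CAB48 alone. The locus had 21789 and 17072 FPKM under high nitrogen (19430 ± 3336, SD, n = 2) against 2641 and 1702 under low nitrogen (2172 ± 664), and it kept 11.2%. Its low nitrogen level was still above the high nitrogen level of every other nearly lost locus. Antenna genes are a family of near-identical copies, so reads may have been shared among them and this value is uncertain in that respect.

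Central carbon metabolism had 3 loci. GRMZM2G043198 on chromosome 1, which RefSeq also calls pdh2, is classed as the E1 beta subunit of pyruvate dehydrogenase, the mitochondrial complex that makes acetyl-CoA for the tricarboxylic acid cycle. It measured 133 and 105 FPKM under high nitrogen against 11.2 and 15.4 under low nitrogen. GRMZM2G021846, which shares its locus on chromosome 6 with GRMZM2G021796, is classed with the enzyme that makes and removes fructose 2,6-bisphosphate, a regulator of the balance between sucrose synthesis and glycolysis. It measured 163 and 118 FPKM under high nitrogen against 19.9 and 13.8 under low nitrogen. Both loci kept more than most, with 11.2% and 12.0% left. The third, a GAPA locus, lies within the bounds of a far more abundant locus and is given with the overlapping loci.

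Lipid metabolism also had 3 loci. GRMZM2G170400 on chromosome 6, whose class includes phosphoethanolamine N-methyltransferase, an enzyme on the way to phosphatidylcholine, measured 97.6 and 82.3 FPKM under high nitrogen against 2.70 and 0.448 under low nitrogen. It kept 1.75%. GRMZM2G062531 on chromosome 3, a methylsterol monooxygenase of sterol synthesis, measured 194 and 92.3 FPKM under high nitrogen against 15.5 and 4.76 under low nitrogen. GRMZM2G018820 on chromosome 5, a glycerophosphodiester phosphodiesterase, which releases glycerol phosphate from membrane lipid breakdown products, measured 101 and 49.0 FPKM under high nitrogen against 5.10 and 9.57 under low nitrogen.

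Cell wall and secondary metabolism had 2 loci each. GRMZM2G014558 on chromosome 7, a cellulose synthase-like gene of family E, measured 243 and 200 FPKM under high nitrogen against 14.8 and 32.5 under low nitrogen. GRMZM2G055585 on chromosome 3, a mannan endohydrolase, measured 20.3 and 29.9 FPKM under high nitrogen against 2.32 and 1.58 under low nitrogen. The remaining pair were more abundant in high nitrogen. GRMZM2G085924 on chromosome 2, which its class places with O-methyltransferases on a weak match, measured 476 and 387 FPKM under high nitrogen against 53.6 and 32.5 under low nitrogen. RefSeq lists hsbp1 and SBP1 among its synonyms, so its place under secondary metabolism is uncertain. GRMZM2G114588 on chromosome 8, similar to isoflavone reductases, measured 362 and 172 FPKM under high nitrogen against 5.28 and 21.4 under low nitrogen.

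RefSeq synonyms named 3 loci of hormone and development families. GRMZM2G077127 on chromosome 1, listed as D14a after the strigolactone receptor D14 of rice, measured 147 and 119 FPKM under high nitrogen against 18.9 and 16.1 under low nitrogen. GRMZM2G348452 on chromosome 1, listed as CKX10, a cytokinin oxidase that breaks cytokinins down, measured 115 and 71.7 FPKM under high nitrogen against 1.90 and 6.28 under low nitrogen. GRMZM2G044902 on chromosome 1, listed as LOB14 of the LOB domain transcription factors, was lower, with 15.2 and 11.5 FPKM under high nitrogen against 0.159 and 0.726 under low nitrogen.

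Synonyms of defence and stress genes named another 4. GRMZM2G402631 on chromosome 1, listed as PR-5, a pathogenesis-related protein, measured 136 and 89.6 FPKM under high nitrogen against 2.32 and 3.01 under low nitrogen. GRMZM2G040441 on chromosome 1, listed as mlo2, whose barley relative MLO governs powdery mildew resistance, measured 53.3 and 56.4 FPKM under high nitrogen against 5.07 and 6.82 under low nitrogen. GRMZM2G158232 on chromosome 3, listed as hsp 17.2, a small heat shock protein, measured 136 and 84.1 FPKM under high nitrogen against 12.6 and 11.5 under low nitrogen. GRMZM2G168898 on chromosome 6, listed as Hb2, a plant hemoglobin, measured 59.9 and 67.4 FPKM under high nitrogen against 1.89 and 1.19 under low nitrogen. The locus that the table itself names HB, on chromosome 9, was under the limit of 10 FPKM, with 5.24 and 6.14 under high nitrogen against 0.184 and 0.150 under low nitrogen.

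**Figure D2:**
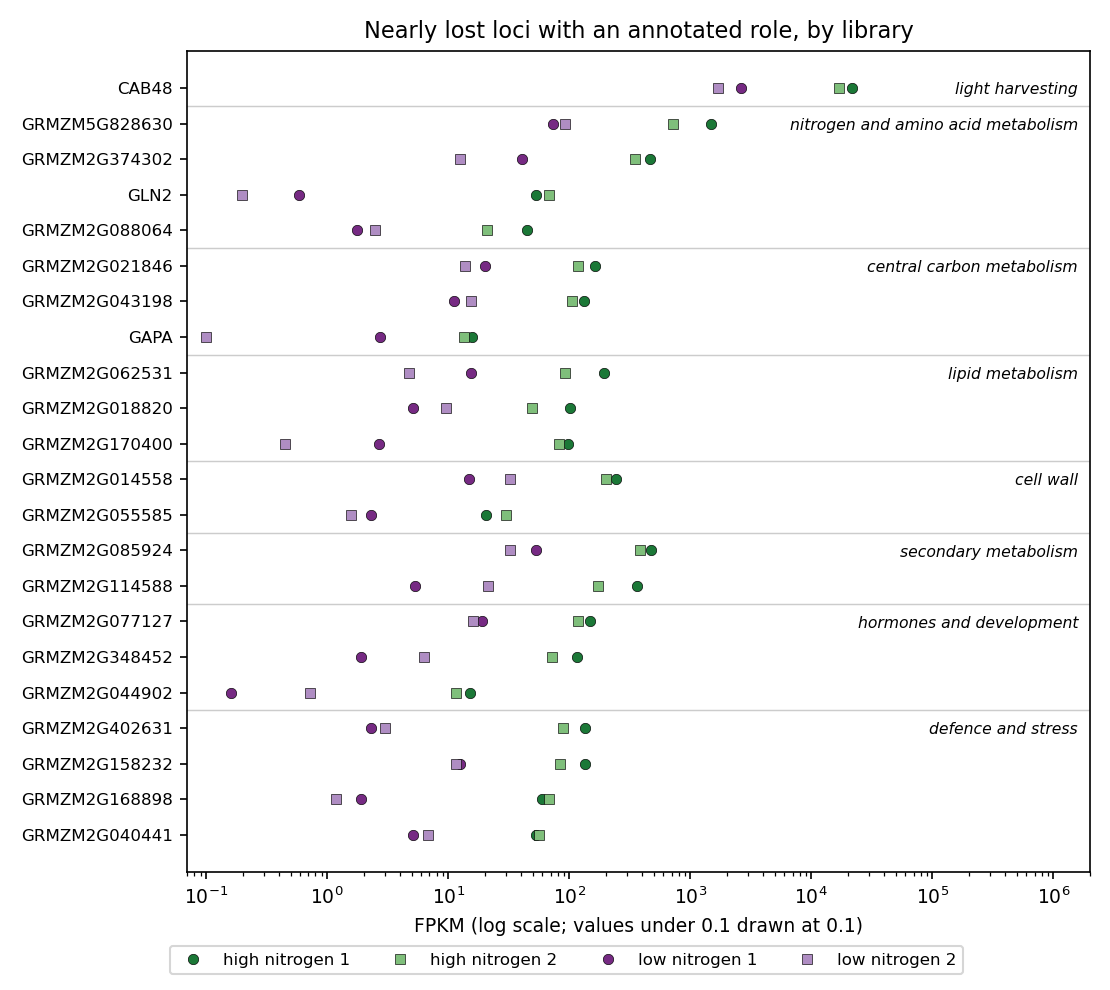
The x axis gives FPKM on a log scale and each line is 1 of the 22 nearly lost loci with a role, grouped by role, with circles for replicate 1 and squares for replicate 2, green for high nitrogen and purple for low nitrogen. The groups do not overlap at any locus because the loci were chosen so, and low nitrogen replicates lie farther apart than high nitrogen replicates at several loci, with the GAPA value in low nitrogen replicate 2 drawn at the left edge.

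Several of the most abundant loci have no role in the sources used here. GRMZM2G113332 on chromosome 5 measured 601 and 699 FPKM under high nitrogen against 43.4 and 55.8 under low nitrogen. GRMZM2G070315 on chromosome 9 measured 594 and 500 FPKM under high nitrogen against 41.2 and 64.3 under low nitrogen. GRMZM2G050364 on chromosome 8 measured 441 and 616 FPKM under high nitrogen against 40.6 and 22.2 under low nitrogen. These 3 kept between 5.94% and 9.64%. GRMZM5G839640 on chromosome 5 measured 346 and 419 FPKM under high nitrogen against 49.9 and 38.9 under low nitrogen, and kept 11.6%.

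Among the loci that kept under 1% without being listed at 0 in both low nitrogen libraries, several were abundant in high nitrogen. GRMZM6G654251 on chromosome 2 measured 235 and 330 FPKM under high nitrogen against 0 and 0.105 under low nitrogen. GRMZM2G061439 on chromosome 3, a short locus of 736 bases, measured 392 and 618 FPKM under high nitrogen against 0.376 and 0.153 under low nitrogen, and kept 0.0524%. GRMZM2G337706 on chromosome 10 measured 108 and 110 FPKM under high nitrogen against 0.222 and 0.457 under low nitrogen. In this last locus the high nitrogen replicates were nearly equal, and it kept 0.312%.

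More loci kept under 1%. GRMZM2G052796 on chromosome 3 measured 101 and 121 FPKM under high nitrogen against 0.203 and 0 under low nitrogen. GRMZM2G025459 on chromosome 8 measured 59.1 and 24.2 FPKM under high nitrogen against 0.0284 and 0.0577 under low nitrogen. GRMZM2G400602 on chromosome 3 measured 24.1 and 31.8 FPKM under high nitrogen against 0.0958 and 0.0660 under low nitrogen, and GRMZM2G149273 on chromosome 9 had 24.2 and 16.3, and 0.109 and 0.0900. The last 3 had values above 0 in both low nitrogen libraries. GRMZM2G026780 on chromosome 1 measured 255 and 551 FPKM under high nitrogen against 3.07 and 3.20 under low nitrogen, so its high nitrogen replicates lay 2.16-fold apart and its low nitrogen replicates close together. GRMZM2G372440 and GRMZM2G148800 complete those under 1% with a value above 0, and both are given with the replicates.

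Both low nitrogen libraries were listed at 0, or below 1e-10 FPKM, at 15 of the 112 loci. Another 8 were at 0 in 1 low nitrogen library and 89 were above 0 in both. In a table without counts an exact 0 can be a failed estimate, so no fold is given for the 15 loci. The highest in high nitrogen were GRMZM5G837022 on chromosome 6, with 333 and 266 FPKM, AC193786.3_FG005 on chromosome 8, with 185 and 298, GRMZM5G892308 on chromosome 2, with 204 and 134, and GRMZM5G833625 on chromosome 8, with 183 and 141. Their high nitrogen means ran from 18.6 to 299 FPKM with a median of 77.0, beside 63.7 for the loci above 0 in both low nitrogen libraries.

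Of these 15 loci, 9 share their start and end with another locus of the table and 6 do not. The 6 are GRMZM2G413315 on chromosome 1 (57.2 and 33.3 FPKM under high nitrogen), GRMZM5G892308, GRMZM2G110286 on chromosome 3 (26.1 and 19.0), GRMZM2G057413 on chromosome 3 (13.8 and 23.4), GRMZM5G860607 on chromosome 4 (33.9 and 28.6) and AC193786.3_FG005. The 9 are GRMZM5G837022, GRMZM5G833625, GRMZM2G368890, GRMZM5G824689, GRMZM2G311401, GRMZM2G467977, GRMZM5G815154 on chromosome 4 (102 and 75.4), AC208855.3_FG002 on chromosome 10 (23.4 and 17.7) and a GRMZM2G120661 locus. Of the 6, 4 are under 600 bases long, and these are GRMZM2G413315, GRMZM5G892308, GRMZM2G110286 and GRMZM5G860607. Genes of abundant leaf proteins also have a second locus listed at or near 0. The main RBCS locus, for the small subunit of rubisco, measured 4176 and 6101 FPKM under high nitrogen against 2975 and 1592 under low nitrogen. A second RBCS locus with the same bounds was listed below 1e-10 FPKM in high nitrogen replicate 1 and low nitrogen replicate 2, at 19.9 in high nitrogen replicate 2 and at 49.6 in low nitrogen replicate 1. Whether any of the 15 loci was listed at 0 in the same way was not tested.

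The high nitrogen replicates of the nearly lost loci were farther apart than those of loci in general. The median fold between them was 1.35, beside 1.17 over the 9260 loci. It was under 1.5 at 71 loci (63.4%, beside 86.5%) and over 2 at 18 (16.1%, beside 4.06%). High nitrogen replicate 1 was the higher one at 70 loci (62.5%, beside 44.8%). In low nitrogen, the 68 loci with at least 1 FPKM in both libraries had a median fold of 1.42, beside 1.27 over the loci in general at the same limit. These 2 folds are not compared at equal level, as the median low nitrogen mean was 2.29 FPKM over all nearly lost loci, beside 26.4 over the 9260.

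The large replicate folds went in both directions. Replicate 2 was over 2 times replicate 1 at 7 loci (6.25%, beside 2.95%), and replicate 1 was over 2 times replicate 2 at 11 (9.82%, beside 1.11%). Of the 7, 4 were at 0 in both low nitrogen libraries and 2 in 1 of them. GRMZM2G368890 on chromosome 10 had the widest gap, with 12.2 and 142 FPKM under high nitrogen. GRMZM2G148800 on chromosome 8 measured 36.1 and 197 FPKM under high nitrogen against 0.158 and 0 under low nitrogen. GRMZM5G824689 on chromosome 2, GRMZM2G311401 on chromosome 3 and GRMZM2G467977 on chromosome 7 were at 0 in low nitrogen, with 17.5 and 68.5, 20.4 and 62.6, and 60.7 and 175 FPKM under high nitrogen. GRMZM2G372440 on chromosome 3 measured 51.8 and 114 FPKM under high nitrogen against 0.0980 and 0 under low nitrogen. The high nitrogen level of these loci thus rests largely on replicate 2. YS1, the iron-phytosiderophore transporter that was set apart by name, had the same order, with 285 and 706 FPKM under high nitrogen against 4.52 and 4.79 under low nitrogen.

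**Figure D3:**
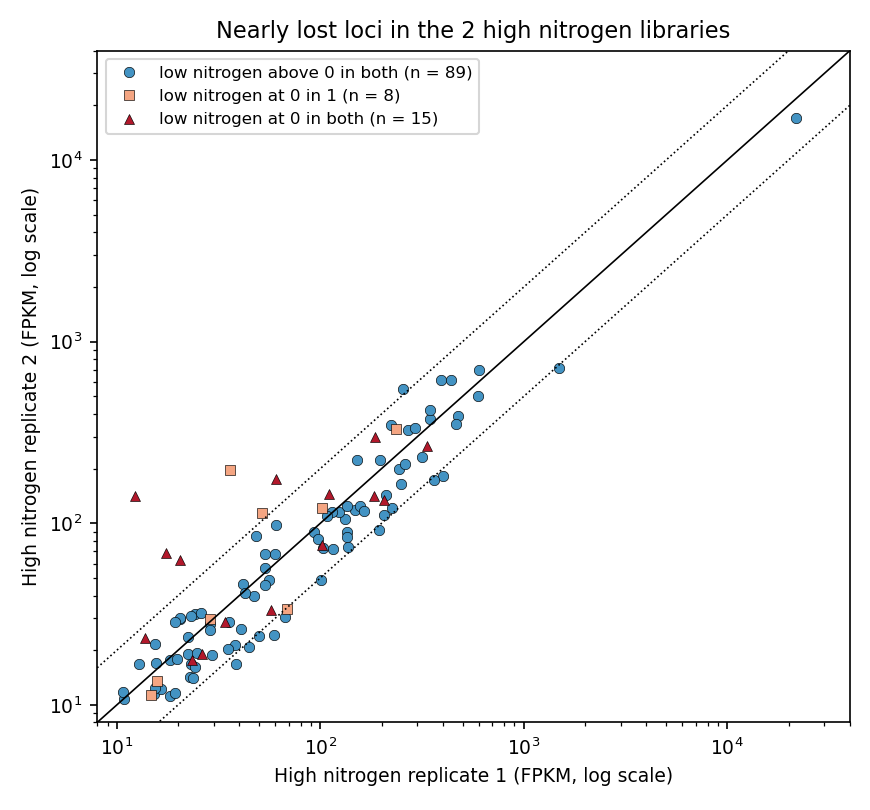
Each point is 1 of the 112 nearly lost loci, with high nitrogen replicate 1 on the x axis and replicate 2 on the y axis, both in FPKM on log scales, and colour and shape give how many low nitrogen libraries were listed at 0. The solid line marks equal values and the dotted lines a 2-fold difference, and 4 of the 7 points above the upper dotted line are loci at 0 in both low nitrogen libraries.

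The loci were spread over all 10 chromosomes. Chromosomes 1 and 3 held 20 each, which is 1.30% and 2.08% of the loci past 10 FPKM in both high nitrogen libraries on these chromosomes. The lowest share was on chromosome 4, with 6 loci or 0.654%. The median gap to the nearest other nearly lost locus was 5.93 Mb, and 6 loci had another within 100 kb. Of these 6, 4 form 2 pairs that share their bounds, and these are the CAB48 locus with a GRMZM2G120661 locus and a pair of loci on chromosome 7 that both carry the name AC203986.3_FG013. The first AC203986.3_FG013 locus measured 56.2 and 48.5 FPKM under high nitrogen against 3.83 and 4.68 under low nitrogen, and the second 68.3 and 33.8 against 2.13 and 0. The third pair, GRMZM2G070348 and GRMZM2G070356 on chromosome 3, lies 5262 bases apart, and both are 398 bases long. GRMZM2G070348 measured 14.7 and 11.3 FPKM under high nitrogen against 0 and 0.571 under low nitrogen, and GRMZM2G070356 had 47.1 and 39.9, and 5.98 and 4.57. The number with another nearly lost locus within 500 kb was 14. How many to expect for as many loci placed without regard to each other was not computed, so these counts are not read as clustering.

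For each nearly lost locus, the nearest locus with at least 10 FPKM in both high nitrogen libraries that was not itself nearly lost and had other bounds lay at a median of 62.8 kb. With nearly lost loci left out of both sets, these neighbours kept a median of 81.1%, beside 88.3% over all 9148 such loci. At 17 of the 112 (15.2%) the neighbour kept under 50%, beside 10.7%. Nearly lost loci close to each other can have the same neighbour, which then counts for each. GRMZM2G072280, with 40.6% left, does so for both AC203986.3_FG013 loci.

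The loci were shorter than loci in general. Among the 90 that share their bounds with no other locus, the median length from start to end, introns included, was 2002 bases, beside 3997 over the loci in general. Of these 90, 21 (23.3%) were under 1000 bases long, beside 4.74%.

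In the table, overlapping loci are given identical bounds, and 22 of the nearly lost loci (19.6%, beside 12.9%) share theirs with at least 1 other locus. No source used here names strand-specific counting, so reads of loci that overlap cannot be told apart. The 20 loci outside the set that are listed with the same bounds and had a high nitrogen mean of at least 1 FPKM showed both directions. Of the 20, 16 had a lower mean in low nitrogen and 4 a higher one. GRMZM2G429955, which meets the limits of the set but was set apart by name, is among the 16. At 11 of the 20, GRMZM2G429955 among them, each low nitrogen value was under each high nitrogen value, and at 3 each was above. The share of all loci that separate in this way was not computed, so nothing is read from these counts.

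Some of these pairs had unequal levels. The GAPA locus among the nearly lost, on chromosome 2 from 42886006 to 42888042, had 15.7 and 13.6 FPKM under high nitrogen and 2.71 and a value below 1e-10 in low nitrogen. GAPA is the A subunit of the chloroplast glyceraldehyde 3-phosphate dehydrogenase of the Calvin cycle. The other GAPA locus with these bounds measured 12459 and 12283 FPKM under high nitrogen against 5592 and 4456 under low nitrogen, so it kept 40.6%, and the nearly lost locus adds little to it. The reverse held for GRMZM5G837022, whose partner measured 11.9 and 11.3 FPKM under high nitrogen against 13.5 and 7.93 under low nitrogen, and for GRMZM5G833625, whose partner had 32.4 and 16.7, and 12.3 and 12.8.

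GLN2 on chromosome 1 shares its bounds with GRMZM2G023289, which measured 278 and 223 FPKM under high nitrogen against 70.0 and 60.0 under low nitrogen and kept 25.9%. GRMZM2G327595 on chromosome 2 measured 221 and 348 FPKM under high nitrogen against 34.1 and 41.4 under low nitrogen, while its partner GRMZM2G327686 had 67.3 and 118, and 75.6 and 169, with groups that overlap. The GRMZM2G120661 locus that shares the bounds of CAB48 had 111 and 145 FPKM under high nitrogen and values below 1e-10 in low nitrogen. GRMZM6G198866 on chromosome 8 is listed at 2 loci with the same bounds. The nearly lost one measured 248 and 164 FPKM under high nitrogen against 17.0 and 13.2 under low nitrogen, and the other had 355 and 90.6, and 22.3 and 0.

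**Figure D4:**
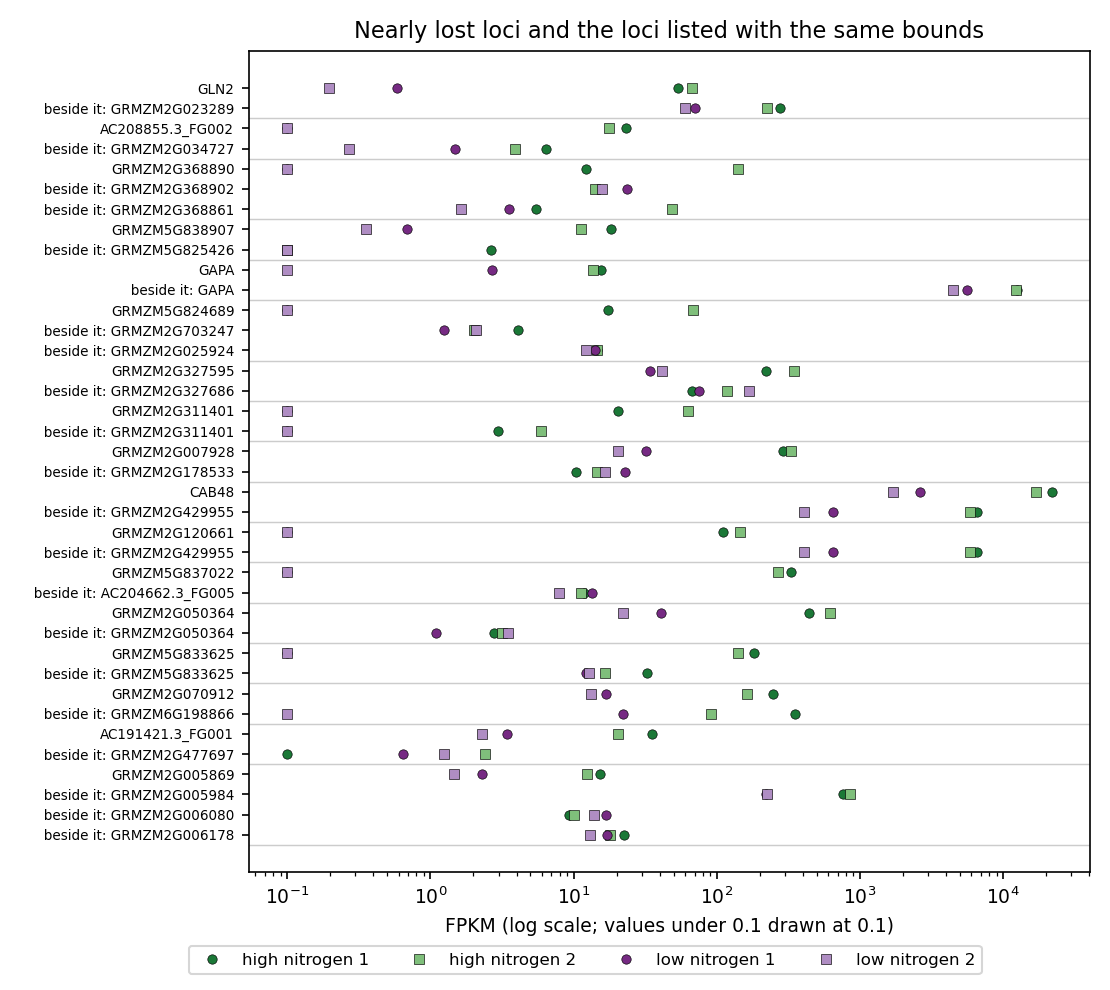
The x axis gives FPKM on a log scale, and each nearly lost locus that shares its bounds with a locus outside the set is followed by those with a high nitrogen mean of at least 1 FPKM, in green for high nitrogen and purple for low nitrogen, with circles for replicate 1 and squares for replicate 2. The second GAPA locus, at 4456 FPKM or more in every library, lies far to the right of the nearly lost one, and GRMZM2G327686 overlaps between treatments while GRMZM2G327595 beside it does not.

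The limit of 20% was not a natural break. The ratio of the higher low nitrogen value to the lower high nitrogen value was 19.4% at GRMZM2G099003, 19.4% at AC194937.3_FG004, 19.5% at GRMZM2G018820, 19.6% at GRMZM2G168665 and 19.9% at GAPA, the 5 loci just inside it. It was 20.1% at GRMZM2G052869, 20.2% at GRMZM2G134264, 20.3% at GRMZM2G089812, 20.6% at GRMZM5G845611 and 20.7% at GRMZM2G061950, just outside. The inner loci were of moderate abundance, as GRMZM2G168665 on chromosome 1 measured 93.6 and 89.5 FPKM under high nitrogen against 17.5 and 13.5 under low nitrogen, and GRMZM2G099003 on chromosome 3 measured 20.4 and 29.7 against 0.892 and 3.95. AC194937.3_FG004 on chromosome 5 measured 38.6 and 16.7 FPKM under high nitrogen against 3.24 and 3.17 under low nitrogen. The outer loci include abundant ones, as GRMZM5G845611 measured 9319 and 7919 FPKM under high nitrogen against 1632 and 1143 under low nitrogen. With the libraries scaled to equal FPKM sums, 59 of the 112 passed the same limits.

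Genes of nitrogen uptake and assimilation, the antenna, polyamines, phosphate response and iron uptake, taken by symbol, had few calls in the same limma fit. The lists include GLN2 on chromosome 1 and the CAB48 locus, which are nearly lost loci, and YS1, which meets the same limits. The low values of these loci, and the calls of GLN2 and YS1, follow from how they were chosen. The authors' own test on read counts called more genes lower, among them antenna genes of both photosystems. A gene without a call here is therefore not shown to be unchanged. Genes of these pathways without such a symbol are not in the lists. Of 22 loci with symbols of nitrogen uptake and assimilation, 16 were tested, GLN2 on chromosome 1 was called lower and 0 were called higher. At an unadjusted p under 0.05, 8 of the 16 were lower, GLN2 on chromosome 1 among them, and 2 higher. Of all 22889 tested loci 10.8% were lower and 9.29% higher. The median log2 fold change of the 16 was -0.78, beside -0.01 over all tested loci, and it ranged from -5.47 to 1.32. The nitrate reductase locus GRMZM2G568636, for the first step of nitrate assimilation, measured 156 and 207 FPKM under high nitrogen against 23.3 and 39.7 under low nitrogen, and was not called. NIR, the nitrite reductase of the next step, had 131 and 134, and 67.1 and 51.7, and was not called either. The glutamine synthetase locus GRMZM2G036464, which RefSeq lists as gs1-4, had the higher values in low nitrogen, with 178 and 330 FPKM under high nitrogen against 510 and 725, and was not called.

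The 9 tested antenna loci had 0 calls in either direction. At an unadjusted p under 0.05, 6 of the 9 were lower, the CAB48 locus among them, and 0 higher. The background here and for the counts that follow is the same 10.8% lower and 9.29% higher of all tested loci. The median log2 fold change of the 9 was -1.28. That is the value of a second lhcb7 locus, with 34.9 and 1.71e-06 FPKM under high nitrogen against 5.07 and 4.23e-06 under low nitrogen. A second CAB-M9 locus, with 27.2 and 9.68 FPKM under high nitrogen against 23.8 and 10.8, is also among the 9. Neither was lower at an unadjusted p under 0.05, whereas the main loci of both genes were. The CAB48 locus, which was chosen for its low values, was the lowest of the 9 with -3.18. The 2 tested polyamine loci had 0 calls and 1 was lower at an unadjusted p under 0.05. This was SAMDC, for S-adenosylmethionine decarboxylase, with 863 and 1074 FPKM under high nitrogen against 245 and 315 under low nitrogen. The 5 tested loci with symbols of phosphate transport and response had 0 calls, with 2 lower and 0 higher at an unadjusted p under 0.05, and their median was 0.05. Among the 7 tested loci of iron uptake and storage YS1 was called lower and 0 were called higher. At an unadjusted p under 0.05, YS1 was the 1 lower locus and 2 were higher. The phosphate symbols included no nearly lost locus, and of the iron symbols YS1 meets the limits but was set apart by name.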

How the data were processed

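RNA of mature tissue of the expanding leaf 6 was sequenced as 125-nucleotide paired-end reads in 4 libraries, 2 per treatment. TopHat2 was used by the authors for alignment to B73 RefGen_v3 and StringTie for transcript assembly, and they deposited FPKM per locus. Their own test needs read counts and was not repeated. Read totals cannot be recovered from FPKM, and no counting intervals are given. The 44070 rows hold 43110 loci, each used once, and starts are written from 1.

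Loci that reached 1 FPKM in 2 or more libraries were compared on log2(FPKM + 1) with limma 3.58.1 (eBayes with a trend) in R 4.3.3, tested first on simulated data. Python 3.11.15, pandas 2.3.3, numpy 2.4.6 and matplotlib 3.10.9 served the rest. Alternatives were other ratios, floors, distances, pseudocounts, filters and normalizations, no trend, a replicate block and each library left out. P-values set a difference against the spread between these 2 libraries per treatment, drawn towards that of tested loci of similar level.

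The members and lists were chosen with earlier results of these data known. Loci named are those with a symbol or class, the 10 highest in high nitrogen, those at 0 in both low nitrogen libraries, the 5 on each side of the limit, the 5 with the widest high nitrogen replicates and those within 100 kb of each other. Loci named for a RefSeq synonym, for a level left under 1% or beside these were chosen after their values were seen. RefSeq (Zm-B73-REFERENCE-NAM-5.0, names only) matched 60 of the 112. No sequences were used here, so the planned protein comparison and promoter motif search were not run.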

Additional observations from a re-analysis of the deposited data

How the results depend on the processing

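The loci numbered 59 at a ratio of 0.1, 198 at 0.3, 227 with means in place of extremes, 59 with equal FPKM sums, and 154 to 207 with each library left out in turn (154 and 207 without high nitrogen replicates 1 and 2, 186 and 188 without low nitrogen replicates 1 and 2). With other floors, quantile normalization, no shared bounds or no value at 0, the last pair chosen after seeing the data, they numbered 84 to 142. All tested ones were lower in low nitrogen under every fit, which follows from how they were chosen. Equal FPKM sums moved the median log2 fold change of all tested loci to 0.60 and that of the nearly lost loci to -2.99. Loci with a nearly lost neighbour numbered 14 at 500 kb and 6 at 20 kb.

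Over all loci, limma called 23 (16 of them nearly lost loci) when every locus above 0 was tested, 59 (37) with equal FPKM sums, and 0 to 54 (0 to 11) with a library left out. Of the nearly lost loci, 5 and 11 were then called without high nitrogen replicates 1 and 2, and 10 and 0 without low nitrogen replicates 1 and 2, where limma gave all 112 an unadjusted p under 0.05. The lone library is then assumed to vary like the other treatment. Without either high nitrogen library 80 of the 112 passed the filter on low values. The other 5 fits gave 113 to 129 calls. Replicate numbers are shared between treatments, but nothing in the labels says they pair. Deviations of same-numbered libraries correlated at 0.203, which over 2 pairs does not establish pairing. With the replicate as a block, 617 loci were called, 474 of them lower, among them the 112. The cause of these moves was not tested. Depth is unknown, so the limits of values near 0 are unknown too.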

Other observations

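Values at 0 also separated replicates of the same treatment. Among the annotated loci, 57 had at least 10 FPKM in 1 high nitrogen library and were listed at 0 in the other, and 34 did so between the low nitrogen libraries. With at least 10 FPKM in 1 replicate and at most 0.2 of it in the other there were 193 loci in high nitrogen and 175 in low nitrogen. The same limits with the treatments exchanged, at least 10 FPKM in both low nitrogen libraries and at most 20% of the lower in high nitrogen, were met by 5 of 9172 loci, of which 4 were listed at 0 in both high nitrogen libraries. Over all loci of the table, 77 values were above 0 but below 1e-10 FPKM, and 3 of them belong to nearly lost loci.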
